A study of Mus musculus with 4 samples.

Results

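Imprinted genes are transcribed mainly from the copy inherited from 1 parent, and 43 of them were followed in RNA-seq libraries of embryonic mouse telencephalon with and without conditional deletion of STING. The members were the genes of well-described imprinted clusters, chosen by name, with earlier results of these data known. Of the 43 genes, 42 had a row in the count table and 40 had enough reads to be tested, among 16145 genes tested in all. Snurf had no row, and Phlda2 and Slc22a18 were below the filter on low counts. The listed members comprised 23 genes expressed mainly from the paternal copy and 16 expressed mainly from the maternal copy. The other 4 are called mixed here (Gnas, Grb10, Ddc and Inpp5f), since their transcripts or cell types differ in the copy they use. Of the members tested, 21 paternally and 6 maternally expressed genes are imprinted in most tissues. In the rest of both classes, Slc38a4, Igf2r, Asb4, Copg2 and Ube3a among them, imprinting depends on the tissue or cell type. They belong to 18 clusters or single loci on 10 chromosomes, with 16 members on chromosome 7.

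Parental copies are told apart by DNA methylation that is laid down in the egg or the sperm at short control regions and kept through the divisions of the embryo. The zinc finger protein ZFP57, with its partner TRIM28 and the maintenance methyltransferase DNMT1, protects these marks, and long noncoding RNAs or insulators of each cluster pass the mark on to neighbouring genes. Many imprinted genes control fetal growth, and several, such as Nnat, Ndn and Magel2, are abundant in or important to developing neurons. The reads here were not separated by parental copy, so every value is the sum over both copies and says nothing of which copy was read.

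All embryos were C57BL/6 at embryonic day 13 (E13), and the libraries were made from total RNA of telencephalic tissue. The WT group had 2 libraries (WT 1 and WT 2), and the cKO group had 2 libraries (cKO 1 and cKO 2) of the genotype STINGf/f;Nestin-Cre, in which Cre recombinase under the Nestin promoter acts in neural progenitors and their progeny, so that cells of other origin keep the gene. The title of WT 2 carries another abbreviation than that of WT 1, so it is unclear if that embryo carried Nestin-Cre. The labels do not say whether the libraries of a group came from separate embryos, and p-values measure only the spread between these samples.

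Promoters of 4 paternally expressed members are shown, listed as known to start in a region methylated in the egg or the sperm. Peg10 was listed too, but no promoter window was available for it. They are RefSeq windows on GRCm38.p6 from 250 bases before to 50 bases after an annotated start, written 5′ to 3′ on the gene's own strand. Capitals mark TGCCGC, the hexanucleotide bound by ZFP57, or its reverse complement GCGGCA.
Peg3, chr7:6730370-6730669, minus strand: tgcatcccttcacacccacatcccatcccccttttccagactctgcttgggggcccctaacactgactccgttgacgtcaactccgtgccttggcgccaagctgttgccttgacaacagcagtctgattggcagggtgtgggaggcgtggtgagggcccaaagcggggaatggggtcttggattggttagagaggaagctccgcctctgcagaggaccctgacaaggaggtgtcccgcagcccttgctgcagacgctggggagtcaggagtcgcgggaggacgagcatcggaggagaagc
Mest, chr6:30737800-30738099, plus strand: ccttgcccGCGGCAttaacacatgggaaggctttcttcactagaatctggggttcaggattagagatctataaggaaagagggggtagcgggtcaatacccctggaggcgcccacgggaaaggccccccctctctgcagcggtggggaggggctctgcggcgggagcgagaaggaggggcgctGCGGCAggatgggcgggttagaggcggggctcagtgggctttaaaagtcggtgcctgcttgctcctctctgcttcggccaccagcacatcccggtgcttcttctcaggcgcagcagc
Snurf, chr7:60005150-60005449, minus strand: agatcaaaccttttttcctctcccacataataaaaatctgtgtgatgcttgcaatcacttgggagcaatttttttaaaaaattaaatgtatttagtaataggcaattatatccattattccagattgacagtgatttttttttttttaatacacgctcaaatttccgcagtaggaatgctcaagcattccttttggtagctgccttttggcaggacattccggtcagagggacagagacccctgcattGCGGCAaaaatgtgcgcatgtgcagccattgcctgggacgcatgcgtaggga
Nnat, chr2:157559828-157560127, plus strand: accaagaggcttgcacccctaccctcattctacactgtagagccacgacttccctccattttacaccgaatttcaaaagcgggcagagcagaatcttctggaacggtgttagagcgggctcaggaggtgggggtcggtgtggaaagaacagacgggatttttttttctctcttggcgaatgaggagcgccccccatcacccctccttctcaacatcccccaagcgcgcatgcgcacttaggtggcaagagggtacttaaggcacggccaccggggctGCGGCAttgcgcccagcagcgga
The Mest window shown held 2 copies of the hexanucleotide, the Snurf and Nnat windows 1 each and the Peg3 window 0. Mest alone of these genes has several windows, and the one shown was picked for having the most copies. Its window at 30733256 to 30733555 held 0. The 4 windows shown held 17, 7, 17 and 13 CpG dinucleotides in the order Mest, Snurf, Nnat and Peg3. The table had windows for 35 of the 43 members, 55 windows in all, and 13 of them (23.6%) held TGCCGC on either strand. Of all 32851 promoter windows of this length, 3813 (11.6%) held it. By parental copy, 8 of 29 windows of paternally expressed members, 4 of 17 of maternally expressed members and 1 of 9 of mixed members held it. The median number of CpG dinucleotides was 12 in the windows of the members and 7 in all windows. Some windows overlap, such as 2 of the Mest windows, and the Snurf window is also a window of Snrpn. A match is only these letters in the window, and binding or methylation was not measured.

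The libraries held between 17209654 and 18533391 counts, so that 3 counts, the most that a count of 0 leaves possible, corresponded to 0.163 to 0.173 CPM, the counts scaled to a common library size with TMM factors. These limits cover counting error only. Tmem173, the gene encoding STING, had 20 counts in WT 1 and 19 in WT 2, against 18 in cKO 1 and 22 in cKO 2, with a log2 fold change of 0.02 (SE 0.45, adjusted p = 0.9999, edgeR). The count did not separate the labels, and counts per gene do not resolve which part of the gene Cre removes, so that cKO and WT below are the groups as labelled. Y-linked transcripts summed to 0 counts in WT 2 and to 1848 to 3002 counts in the other 3 libraries. Values given without WT 1 therefore rest on WT 2, which had no Y-linked counts, as the only WT library. All members are autosomal, and the part of this difference in their values was not tested. The library WT 1 stood apart in markers of tissue around the telencephalon. Meninges and mesenchyme markers (12 genes) summed to 319 CPM in WT 1 and to 54.6 to 98.9 CPM in the other 3 libraries, and choroid plexus markers (8 of 10 listed genes had a row) summed to 51.5 CPM in WT 1 and to 6.61 to 10.3 CPM in the other 3. Blood markers (9 genes) summed to 1082 CPM in WT 1 and to 473 to 724 CPM elsewhere, endothelium markers (6) to 178 and 123 to 141 CPM, and microglia markers (6) to 34.1 and 20.8 to 25.7 CPM. The fitted level in cKO was lower for 9 of 9 meninges, 3 of 3 choroid plexus, 8 of 9 blood, 6 of 6 endothelium and 6 of 6 microglia markers tested. The median log2 fold changes were -1.19, -2.66, -0.37, -0.37 and -0.33 in that order. These lists were chosen with earlier results of these data known. Htr2c, Slc4a5, Sostdc1, Ogn and Fmod in them are among the genes the study reported as most lowered in cKO. Of these, Htr2c alone passed the filter on low counts, but all enter the sums. The values of the meninges and choroid plexus lists are therefore not independent of that choice. None of the meninges and choroid plexus markers was at 0 in all libraries, but Folr1 was at 0 in WT 2 and Kcnj13 at 0 in cKO 2. Markers of the ventral telencephalon summed to 635 CPM in cKO 1 and to 952 to 990 CPM elsewhere, and all 8 had a lower fitted level in cKO (median log2 fold change -0.28, 0 called by edgeR). In 3 of these 8, Gad1, Gad2 and Isl1, the groups did not overlap, with cKO the lower, beside 10.8% of all genes tested. The same held for 3 of 6 endothelium, 2 of 3 choroid plexus, 1 of 9 meninges, 1 of 9 blood and 1 of 6 microglia markers tested. In these lists 0 markers were separated with cKO the higher. Markers of cortical progenitors summed to 2116 to 2359 CPM and those of cortical neurons to 5397 to 6394 CPM, so both cell types of the labelled tissue were present in every library. In bulk tissue, fewer cells of a type and less RNA per cell cannot be told apart.

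Across the members, cKO and WT differed little, and the members lay slightly lower in cKO more often than higher. Of the 40 members tested, 27 had a lower and 13 a higher fitted level in cKO, with a median log2 fold change of -0.14 and a range from -1.31 to 0.25. Over all genes tested the median was -0.01 and 52.1% were lower. The marker lists of non-neural cells and of the ventral telencephalon were lower in cKO as well, with the medians given above, and their part in the members' values was not tested. A gene was called at the thresholds of the study, 2-fold or more with an unadjusted p no higher than 0.05 in edgeR's quasi-likelihood fit, and 1 member, Slc38a4, was called, against a background of 131 of 16145 genes (0.811%). No member passed an adjusted p under 0.05 (all at 0.9999), and neither did any other gene (0.0%), while 2 members and 199 genes had an unadjusted p under 0.05 in edgeR. DESeq2 called 0 members and 65 genes at the same thresholds. In 9 members each cKO library was below each WT library (Meg3, Rian, Peg10, Asb4, Mest, Impact, Slc38a4, Zdbf2 and Inpp5f), which is 22.5% of those tested beside 10.8% of all genes. In 0 members did both cKO libraries lie above both WT libraries, beside 11.0% of all genes.

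**Figure D1:**
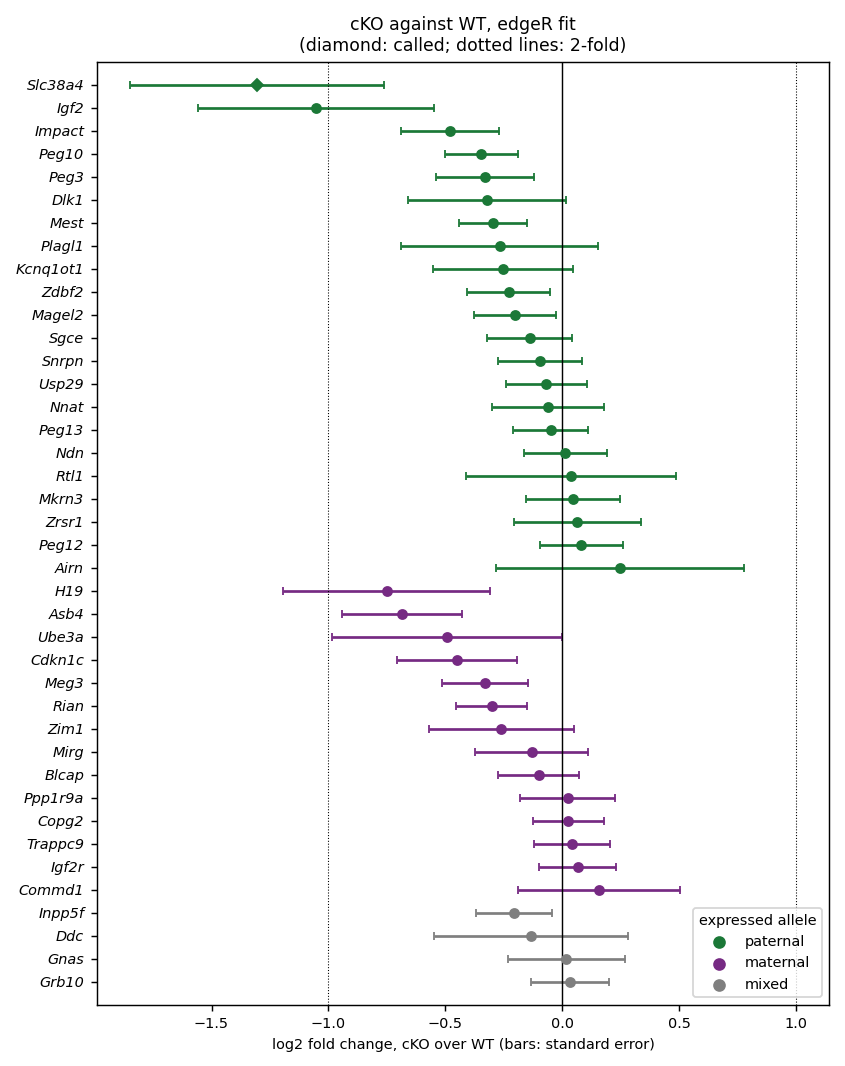
Log2 fold change of cKO over WT (x axis) for each of the 40 members tested, ordered within paternally expressed, maternally expressed and mixed members, with bars of 1 standard error. Slc38a4, at -1.31, is the only member called and is drawn as a diamond; 27 of the 40 points lie below 0.

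The medians of paternally and maternally expressed members lay close together. The 22 paternally expressed members tested had a median log2 fold change of -0.17, with 16 lower and 6 higher, and the 14 maternally expressed members a median of -0.20, with 9 lower and 5 higher. The 4 mixed members had a median of -0.06, with 2 lower and 2 higher. The groups were separated, with cKO below WT, in 5 of 22 paternally expressed, 3 of 14 maternally expressed and 1 of 4 mixed members. These shares were 22.7%, 21.4% and 25%, beside 10.8% of all genes tested. Among members imprinted in most tissues, 15 of 21 paternally expressed and 6 of 6 maternally expressed genes had a lower fitted level in cKO. Their medians were -0.14 and -0.32 with all libraries, and -0.04 and -0.03 without WT 1. Meg3, Rian and Mirg, among the 6 maternally expressed genes, belong to 1 cluster. For the other members of both classes, imprinting depends on tissue or cell type and was not measured here. The difference between the parental classes was not tested.

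The libraries of a group differed from each other in the members as a whole. The highest library was WT 1 in 20 of the 40 members (50%) and the lowest was WT 1 in 0, while over all genes it was the highest for 25.1% and the lowest for 21.1%. The library cKO 1 was the lowest for 20 members (50%), beside 27.4% of all genes, and cKO 2 was the lowest for 16. The members took 0.789% of counts in WT 1 and 0.695% in WT 2, against 0.601% in cKO 1 and 0.732% in cKO 2. The median log2 difference over members, taken after adding 0.5 CPM, was 0.18 between WT 1 and WT 2, which is between replicates, beside 0.00 for all genes. It was -0.25 between cKO 1 and WT 1, with 6 of 40 members higher in cKO 1. Between cKO 2 and WT 2 it was 0.01, with 20 of 40 members higher in cKO 2. The labels do not pair these libraries, and cKO 1 was not compared with WT 2 in this way, nor cKO 2 with WT 1. Without WT 1, the median over members was -0.04, with 25 of 40 lower, beside 49.4% of all genes.

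**Figure D2:**
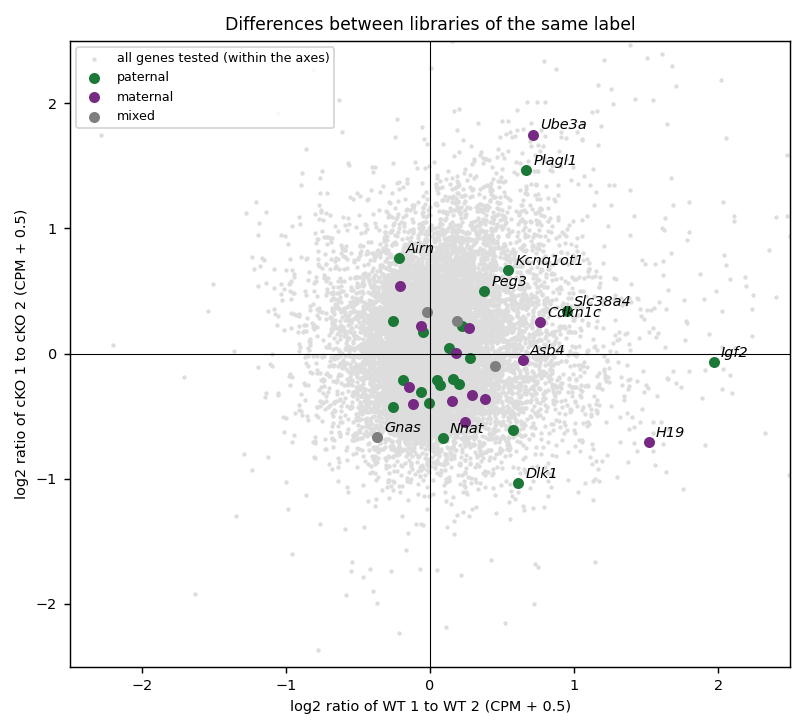
Log2 differences between libraries of the same label for the members (coloured) and all genes tested (grey), in log2 of CPM plus 0.5, with WT 1 minus WT 2 on the x axis and cKO 1 minus cKO 2 on the y axis. Igf2 and H19 lie far to the right, and Ube3a and Plagl1 lie at the top, where cKO 1 exceeded cKO 2.

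**Figure D3:**
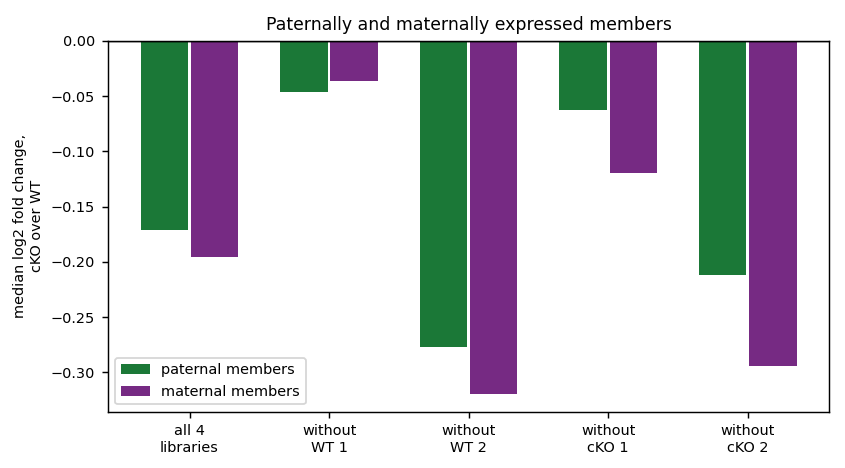
Median log2 fold change of cKO over WT for the 22 paternally and 14 maternally expressed members (bars, from 0), with all 4 libraries and with each library left out. Both medians stay below 0 and are nearest to 0 without WT 1.

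The levels of the members spanned a wide range. Per kilobase of exon, Nnat was the highest at 1561 CPM per kilobase (mean of 4 libraries), followed by Ndn at 133, Peg13 at 55.7, Mest at 45.4, Meg3 at 44.5, Grb10 at 41.4 and Blcap at 39.2. The noncoding RNA Kcnq1ot1, with 93092 annotated exon bases, had 0.159 CPM per kilobase. In CPM without regard to length, 14 members exceeded 100 and 7 were under 10. The highest library exceeded the lowest by 2-fold or more in 8 members tested.

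**Figure D4:**
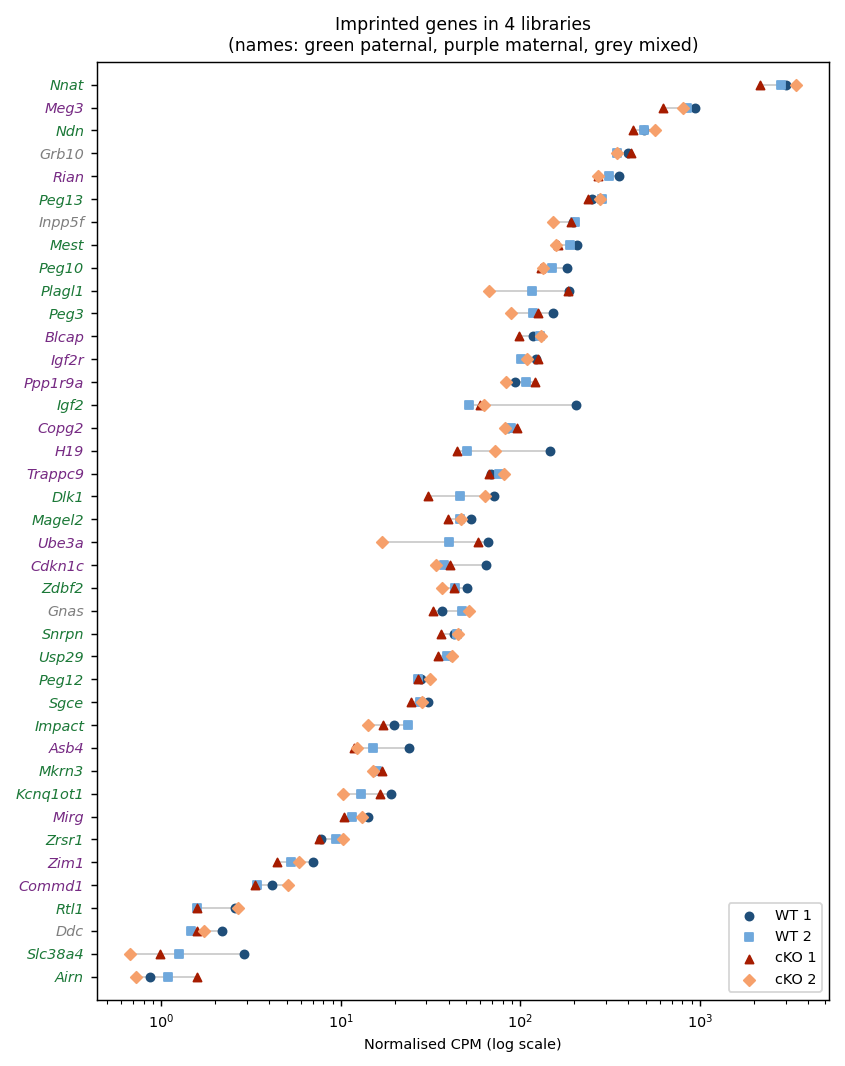
Level of each member tested in each of the 4 libraries, in normalised CPM on a log axis (x), ordered by mean level, with gene names coloured by parental copy. Nnat lies highest, at 2153 to 3436 CPM, and WT 1 stands to the right of the other libraries for Igf2 and H19.

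At the Igf2-H19 cluster, on chromosome 7, the fitted levels of both genes were lower in cKO without passing the test, and WT 1 alone stood above the other libraries. Igf2 (142650766 to 142666816, minus strand) encodes an insulin-like growth factor that drives fetal growth and is made from both parental copies in choroid plexus and leptomeninges. It had 203.7 CPM in WT 1 and 51.7 in WT 2, against 60.0 in cKO 1 and 63.0 in cKO 2. WT 1 was thus 3.94-fold above WT 2, and WT 2 was the lowest library. The log2 fold change was -1.05 (SE 0.50, unadjusted p = 0.0705, edgeR fit). H19 (142575529 to 142578143, minus strand), a maternally expressed noncoding RNA and microRNA precursor, had 145.9 CPM in WT 1 and 50.6 in WT 2, against 44.2 in cKO 1 and 72.5 in cKO 2. Again WT 1 was far above the others, and WT 2 lay between the cKO libraries. The log2 fold change was -0.75 (SE 0.44, unadjusted p = 0.127, edgeR fit). Without WT 1 the log2 fold changes turned to 0.25 for Igf2 and 0.20 for H19. Without WT 2 they were -1.72 and -1.31, with edgeR adjusted p of 4.77e-06 and 0.00408, and over all alternatives the adjusted p ran up to 1 for both. The meninges and choroid plexus lists were highest in WT 1 too, and their part in the result was not tested. Of the exon bases of Igf2, 64.6% are shared with another annotated gene, so its count may have lost or gained reads.

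Other members also stood highest in WT 1. Slc38a4 (chromosome 15, 96994823 to 97055956, minus strand), a paternally expressed amino acid transporter, had 50 counts in WT 1 and 23 in WT 2, against 18 in cKO 1 and 12 in cKO 2, or 2.88, 1.25, 0.984 and 0.672 CPM. The groups did not overlap, but WT 2 was nearer to cKO 1 than to WT 1. It was 2.47-fold lower in cKO (log2 fold change -1.31, SE 0.54, unadjusted p = 0.0430, edgeR fit) and was the only member called. The call was lost without WT 1 (-0.59), without cKO 1 (-1.60), without cKO 2 (-1.05) and with DESeq2 (unadjusted p = 0.0894). Cdkn1c, which encodes the maternally expressed cell cycle inhibitor p57, had 64.5 CPM in WT 1 and 37.8 in WT 2, against 40.8 in cKO 1 and 34.1 in cKO 2. Without WT 1 its log2 fold change of -0.45 (SE 0.26, unadjusted p = 0.119, edgeR fit) was -0.01, and 30.7% of its exon bases are shared with another gene. Asb4, an ankyrin repeat and SOCS box gene, had 23.9 CPM in WT 1 and 15.2 in WT 2, against 11.9 in cKO 1 and 12.4 in cKO 2. The cKO libraries lay close together below both WT libraries. Its log2 fold change was -0.69 (SE 0.26, unadjusted p = 0.0293, edgeR fit), short of 2-fold, and was -0.32 without WT 1. These 3 members were grouped here for being highest in WT 1, which they share with the markers that were high there. The part of those markers in these results was not tested.

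**Figure D5:**
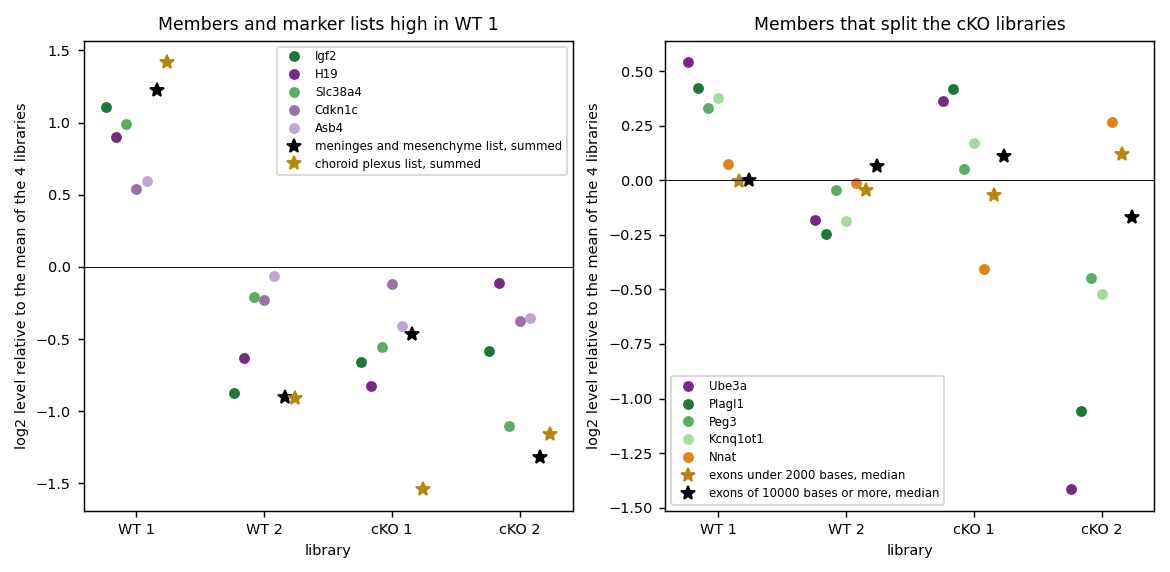
Level of selected members and lists in each library as log2 relative to the mean of the 4 libraries. On the left, Igf2, H19, Slc38a4, Cdkn1c and Asb4 (dots) are highest in WT 1, as are the summed meninges and choroid plexus lists (stars); on the right, Ube3a, Plagl1, Peg3 and Kcnq1ot1 are lowest in cKO 2 and Nnat is lowest in cKO 1, with the medians of genes of short and long exons as stars.

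In the Dlk1-Dio3 cluster on chromosome 12, the fitted levels of the noncoding RNAs Meg3 and Rian, made from the maternal copy, were lower in cKO without passing the test. Meg3 (109541001 to 109571726, plus strand) had 944 CPM in WT 1 and 851 in WT 2, against 620 in cKO 1 and 807 in cKO 2. Rian, the host of small nucleolar RNAs, had 355, 313, 271 and 271 CPM in the same order. In both, the cKO libraries lay below the WT libraries, by a narrow margin for Meg3. The log2 fold changes were -0.33 for Meg3 (SE 0.18, unadjusted p = 0.109, edgeR fit; -0.52 to -0.15 with 1 library left out) and -0.30 for Rian (SE 0.15, unadjusted p = 0.0802, edgeR fit). Mirg, the host of microRNAs of the same cluster, had 10.4 to 14.3 CPM with overlapping groups. The paternally expressed Dlk1, a transmembrane protein related to Notch ligands, had 71.2 CPM in WT 1 and 46.4 in WT 2, against 30.7 in cKO 1 and 63.4 in cKO 2. The groups overlapped, since cKO 2 exceeded WT 2 and was 2.07-fold above cKO 1. Its log2 fold change of -0.32 (SE 0.34, unadjusted p = 0.368, edgeR fit) turned to 0.02 without WT 1 and to 0.11 without cKO 1. Rtl1, a gene derived from a retrotransposon, had 1.58 to 2.69 CPM with overlapping groups. The ventral telencephalon markers were lowest in cKO 1 too, as were Meg3 and Dlk1, and their part in these results was not tested.

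At Nnat-Blcap on chromosome 2, the groups overlapped. Nnat (157560078 to 157562522, plus strand) encodes neuronatin, a small membrane protein of neurons, and lies within the span of Blcap. It had 3005 CPM in WT 1 and 2827 in WT 2, against 2153 in cKO 1 and 3436 in cKO 2, so that the highest and the lowest library were both cKO. Its log2 fold change was -0.06 (SE 0.24, unadjusted p = 0.802, edgeR fit), and it was 0.24 without cKO 1 and -0.42 without cKO 2. Blcap, which encodes a small membrane protein, had 98.8 to 131 CPM and was also lowest in cKO 1 and highest in cKO 2. The 2 genes together took 0.226% of counts in cKO 1 and 0.352% in cKO 2. The ventral telencephalon list was lowest in cKO 1 as well, and its part in this was not tested.

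In the Snrpn-Ube3a cluster on chromosome 7, the homologue of the Prader-Willi and Angelman syndrome region, the groups overlapped in all 5 paternally expressed members tested. Ndn encodes necdin, a protein of the MAGE family that is abundant in neurons, and had 487 CPM in WT 1 and 488 in WT 2, against 425 in cKO 1 and 559 in cKO 2. The cKO libraries lay on both sides of the WT libraries, and the log2 fold change was 0.01 (SE 0.18, unadjusted p = 0.941, edgeR fit). Snrpn, which encodes the spliceosomal protein SmN, had 36.3 to 45.1 CPM, and Magel2, a relative of Ndn, had 39.4 to 53.0. Mkrn3, a makorin RING finger gene, had 15.1 to 17.1 CPM and Peg12, a gene of the FRAT family, 27.0 to 31.3. The groups overlapped in all 4 genes. Ube3a (59228750 to 59311536, plus strand), an E3 ubiquitin ligase that is maternally expressed in neurons, varied more. It had 65.9 CPM in WT 1 and 39.9 in WT 2, against 58.2 in cKO 1 and 16.96 in cKO 2, a 3.43-fold difference between the cKO libraries. The log2 fold change of -0.49 (SE 0.49, unadjusted p = 0.347, edgeR fit) was 0.15 without cKO 2 and -1.64 without cKO 1, where it was called. Snhg14, the paternal antisense transcript that runs into Ube3a, named here after its values were seen, had 55.2, 34.8, 32.0 and 15.2 CPM. It was lowest in cKO 2, and cKO was below WT without overlap, with a log2 fold change of -0.93 (SE 0.36, unadjusted p = 0.0309, adjusted p = 0.9999, edgeR fit). Of the Ube3a exon bases, 27.3% are shared with transcripts of the other strand, and since the strand setting of the counting is not given, the reads of the 2 genes cannot be told apart there.

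Plagl1 on chromosome 10, a paternally expressed zinc finger transcription factor, also differed between the cKO libraries, by 2.78-fold, and Airn did so by 2.18-fold. It had 186 CPM in WT 1 and 117 in WT 2, against 185 in cKO 1 and 66.6 in cKO 2. Each group had a high and a low library, and the log2 fold change of -0.27 (SE 0.42, unadjusted p = 0.544, edgeR fit; given after its values were seen) was 0.30 without cKO 2 and -1.18 without cKO 1, where it was called. Peg3 and Kcnq1ot1 were also lowest in cKO 2. Peg3 (chromosome 7, 6703892 to 6730431, minus strand), a zinc finger protein, had 153 CPM in WT 1 and 117 in WT 2, against 126 in cKO 1 and 89.0 in cKO 2, with a log2 fold change of -0.33 (SE 0.21, unadjusted p = 0.154, edgeR fit) that ran from -0.60 to -0.09 with 1 library left out. Genes of 10000 exon bases or more (1445 tested genes) lay lower in cKO 2 as a class, with a median log2 level of -0.17 relative to the mean of the 4 libraries and of 0.00 to 0.11 in the other libraries. Genes under 2000 exon bases (3052) had a median of 0.12 in cKO 2. Of the 10 members tested with 10000 exon bases or more, 6 were lowest in cKO 2, Ube3a (20626 bases) and Peg3 (13324) among them, and 4 were lowest in cKO 1. Usp29 (18078 bases) was highest in cKO 2, and Meg3 (18089) was higher in cKO 2 than in cKO 1. Plagl1 has 7819 exon bases. The part of exon length in these values was not tested. Within the Peg3 cluster, Usp29, of the ubiquitin-specific protease family, had 34.9 to 41.7 CPM and Zim1, another zinc finger gene, 4.43 to 7.02, with overlapping groups.

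On chromosome 6, 2 of 4 members tested in the Peg10-Sgce cluster and 1 of 2 in the Mest cluster had cKO below WT. Over all genes tested, 10.8% were separated in this way. Peg10 (4747306 to 4760517, plus strand), a retrotransposon-derived gene that the placenta requires, had 183 CPM in WT 1 and 151 in WT 2, against 130 in cKO 1 and 133 in cKO 2. The cKO libraries were close together and below both WT libraries, and the log2 fold change was -0.35 (SE 0.16, unadjusted p = 0.0585, edgeR fit). Mest, a hydrolase-fold protein and a marker of mesoderm, had 207, 189, 163 and 158 CPM in the same order, without overlap between groups. In Asb4, described above, cKO was below WT as well. Sgce, the epsilon-sarcoglycan gene, had 24.5 to 30.8 CPM and Ppp1r9a, which encodes the actin-binding scaffold neurabin, 83.1 to 121, both with overlapping groups. Copg2, a coatomer subunit gene that overlaps the end of Mest, had 82.0 to 95.6 CPM. Of the Mest exon bases, 23.1% are shared with Copg2 on the other strand.

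Besides Slc38a4, the single loci with cKO below WT were Impact, Zdbf2 and Inpp5f, beside 10.8% of all genes tested. In the single loci Gnas and Plagl1 the groups overlapped. Impact (chromosome 18), a paternally expressed inhibitor of the kinase GCN2, had 19.9 CPM in WT 1 and 23.8 in WT 2, against 17.1 in cKO 1 and 14.2 in cKO 2. WT 2 was here the highest library, and the log2 fold change was -0.48 (SE 0.21, unadjusted p = 0.0505, edgeR fit). Zdbf2, a zinc finger gene, had 50.4, 43.2, 43.01 and 36.8 CPM, with WT 2 and cKO 1 nearly equal. Inpp5f, an inositol phosphatase gene with a paternally expressed brain variant that gene counts do not separate, had 198, 201, 192 and 153 CPM.

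In the remaining members the groups overlapped, genes that restrain growth among them. Grb10, an adaptor that restrains insulin and IGF receptor signalling and is paternally expressed in neurons, had 396 CPM in WT 1 and 347 in WT 2, against 415 in cKO 1 and 346 in cKO 2. The log2 fold change was 0.03 (SE 0.17, unadjusted p = 0.852, edgeR fit), and the variation lay within each group. Igf2r, the receptor that takes up and degrades IGF2, had 101.3 to 125.3 CPM, and its antisense RNA Airn had 0.728 to 1.59 CPM. Peg13, a noncoding RNA within Trappc9, had 251, 285, 240 and 278 CPM and a log2 fold change of -0.05 (SE 0.16, unadjusted p = 0.763, edgeR fit). Trappc9, a subunit gene of the TRAPP trafficking complex, had 67.2 to 80.9 CPM. Kcnq1ot1, the antisense RNA that silences Cdkn1c and its neighbours, had 10.3 to 19.2 CPM. Zrsr1, which encodes a relative of a splicing factor and lies within Commd1, had 7.60 to 10.4 CPM and Commd1 3.33 to 5.09. Ddc, the decarboxylase gene of dopamine and serotonin synthesis, had 1.47 to 2.19 CPM. Gnas, which encodes Gs alpha and further products of several promoters, had 32.6 to 52.1 CPM, and 21.96% of its exon bases are shared with another gene. Phlda2, which limits placental growth, had 3, 0, 0 and 0 counts and Slc22a18 2, 1, 0 and 7. Both were below the filter, and only Slc22a18 in cKO 2 exceeded 3 counts.

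Genes that keep or erase imprints differed little between the groups. Of 18 listed, 15 had a row and were tested, with 7 lower and 8 higher in cKO. Their median log2 fold change was 0.02, and 0 were called by edgeR. Over all genes tested, 52.1% were lower in cKO and 0.811% were called, so 0 calls in a list this short says little. Zfp57 itself was abundant, with 291 CPM in WT 1 and 300 in WT 2, against 281 in cKO 1 and 290 in cKO 2. The groups were separated with cKO the lower in 1 gene, Zfp57, beside 10.8% of all genes tested. They were separated with cKO the higher in 2, Dnmt1 and Uhrf1, beside 11.0%. The largest differences were -0.26 for Tet1, which oxidises methylcytosine, -0.23 for Zfp445, a second zinc finger protector of imprints, 0.12 for Uhrf1 and 0.11 for Trim28. Of 30 further imprinted genes, 21 were tested, with 14 lower and 7 higher and a median of -0.08. Beside the same 0.811% of all genes, 1 of them was called. This was Calcr, the calcitonin receptor gene, with 24, 16, 2 and 10 counts and a log2 fold change of -1.73 (SE 0.72, unadjusted p = 0.0424, edgeR fit). Dio3, the thyroid hormone deiodinase of the Dlk1 cluster, had 208, 141, 76 and 148 counts and a log2 fold change of -0.66, and was lowest in cKO 1 like Dlk1 and Meg3. The largest higher values were 0.33 for Cdh15 and 0.25 for Tssc4, neither called.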

How the data were processed

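Bulk RNA-seq of E13 mouse telencephalic tissue was analysed in 4 libraries, 2 WT and 2 cKO, grouped by the genotype labels. The authors deposited raw counts of reads per gene for all 4 libraries in 1 table, made with TopHat2 2.0.12, Bowtie2 2.2.3 and HTSeq 0.6.0 per the submitters' processing notes, which name build mm9. The gene positions of the table match GRCm38 (of 27232 genes matched to GENCODE M21, 97.3% start or end within 1 base of it) and were read as such. The strand setting, the counting mode and any removal of duplicates are not given in the sources used here, and reads on exons that genes share may be lost or misassigned. Blank rows (11 of 27304, 0.0403% of rows, with no gene name) were left out. A second table of 2 of the libraries and the authors' columns of mean counts, fold changes and p-values were not used.

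Counts were fitted with edgeR 4.0.16 in R 4.3.3 (TMM, filterByExpr with a minimum count of 10, quasi-likelihood test, group as the only term). CPM were computed from these counts with TMM-scaled library sizes, and exon lengths came from GENCODE M21. Alternatives were RLE normalization, no filter, at least 10 counts in every library, DESeq2 1.42.0, a replicate block and leaving out each library. The scripts were tested on simulated data. Same-numbered libraries were not treated as pairs, since the labels tie the number to nothing shared.

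All members are named. Log2 fold changes with errors are given for members called, the 12 with the largest log2 fold change in size and the 6 with the highest mean CPM. For the lists of imprint keepers and of other imprinted genes, counts, genes called and the 2 largest differences in each direction are given. The members and all lists were chosen with earlier results of these data known. Plagl1's statistics and Snhg14 were added after their values were seen.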

Additional observations from a re-analysis of the deposited data

How the results depend on the processing

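Genes and members called, of which 131 and 1 were found, came to 127 and 1 with RLE normalization, 72 and 1 with at least 10 counts in every library, 65 and 0 with DESeq2, 405 and 2 with no filter, and 208 and 1 with a replicate block. Leaving out 1 library gave 104 to 531 genes and 0 to 3 members called. At an adjusted p under 0.05, 0 genes and 0 members became 65 and 2 with no filter, 5 and 0 with the replicate block, and 0 to 116 and 0 to 2 with a library left out. The 2 members were Igf2 and H19 both with no filter and without WT 2, and the cause was not tested. A library left alone in its group was assumed to vary like those of the other group. The deviations of same-numbered libraries had a correlation of 0.108 across 16145 genes, which are not independent replicates. The median over members stayed below 0 in every alternative and ran from -0.26 to -0.04 with a library left out (paternally expressed -0.28 to -0.05, maternally expressed -0.32 to -0.04). Of 17 members given with statistics, 8 kept their direction in all 9 alternatives: Meg3, Rian, Peg3, Peg10, Asb4, Impact, Cdkn1c and Slc38a4. The other 9 changed sign with a library left out: log2 fold changes ran from -1.72 to 0.25 for Igf2, -1.31 to 0.20 for H19, -0.93 to 0.11 for Dlk1, -0.42 to 0.24 for Nnat, -1.18 to 0.30 for Plagl1, -0.10 to 0.17 for Grb10, -0.19 to 0.20 for Ndn, -1.64 to 0.15 for Ube3a and -0.15 to 0.058 for Peg13. Phlda2 and Slc22a18 had too few counts to be tested.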
